A study of Mus musculus with 9 samples.

Results

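The genes described here are 10 members of the NRF2 antioxidant system: Hmox1, Nqo1, Gclm, Gclc, Txnrd1, Srxn1, Slc7a11, Nfe2l2, Keap1 and Bach1. They were taken by symbol from the array rows annotated with 1 gene, and 8 of the 10 had such a row, among 14860 genes measured. Gclm, which encodes the modifier subunit of glutamate-cysteine ligase, and Txnrd1, the cytosolic thioredoxin reductase, lay on transcript clusters annotated with a second gene and have no value here. The set was chosen because Hmox1 was lower with RANKL, so differences of the 8 genes from CSF-1 alone are given as a description. Counts of the genes called in those comparisons are printed only beside the share of all genes called, and support nothing.

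To follow osteoclast (OC) differentiation, total RNA of murine myeloid precursors (MPs) from bone marrow of C57Black6 mice was hybridised to 9 Affymetrix exon arrays. The marrow cells were expanded for 3 days with CSF-1, the macrophage growth factor, at 100 ng/ml by the labels and at a smaller dose by the methods, and seeded in a commercial osteoclast medium. The 3 groups of 3 arrays were MPs in CSF-1 alone, MPs given CSF-1 with RANKL, the cytokine that drives OC formation, for 1.5 days, and MPs given both for 3 days. Both RANKL groups are set against the same CSF-1 alone arrays. Levels are log2 signals as the authors normalised them, so a difference of 1 is a doubling of signal. The labels give no age or sex of the mice and no culture time for the CSF-1 alone cells, so effects of RANKL and of longer culture cannot be told apart. Nor do they name separate cultures or animals behind the arrays of a group, and the p-values then measure only the spread between these arrays.

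NRF2, encoded by Nfe2l2, is a transcription factor that switches on genes of glutathione synthesis, peroxide removal and quinone reduction by binding antioxidant response elements together with a small MAF protein. KEAP1 holds NRF2 in the cytoplasm and feeds it to a ubiquitin ligase until oxidants or electrophiles modify KEAP1. BACH1 competes for the same elements and represses them, Hmox1 above all, until haem binds BACH1 and removes it. In macrophage precursors RANKL uses reactive oxygen species as signals, and NRF2 is known as a brake on OC formation.

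The promoter windows of the genes, with 250 bases before and 50 after the start of transcription, were searched on both strands for 2 forms of the antioxidant response element. The first was TGACNNNGC, the element itself, and the second was TGANTCAGC, the MAF recognition form to which NRF2 and BACH1 bind. A single run of letters can match both forms. RefSeq windows (GRCm38.p6) were at hand for 8 of the 10 genes. Hmox1 and Gclc had none, so the search says nothing on their promoters. The stretches of the measured genes that held a match before the start are shown, since they place the element in the gene whose levels follow, in the direction of transcription and with the match in capitals.
Srxn1, chr2:152105453-152105512, plus strand: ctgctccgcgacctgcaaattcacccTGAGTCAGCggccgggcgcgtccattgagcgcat
Nfe2l2, chr2:75704870-75704913, minus strand: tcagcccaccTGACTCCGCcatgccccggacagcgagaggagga
The Srxn1 match had the second form and began 45 bases before the start, and a match to the first form, TGACCTAGC on the opposite strand, lay 29 bases after it. The Nfe2l2 match had the first form and began 240 bases before the start. Matches to the first form were also found in Gclm (TGACGGTGC, opposite strand) and in 1 of the windows of Txnrd1 (TGACAAAGC, opposite strand), the genes without a value. The windows of Nqo1, Slc7a11, Keap1 and Bach1 held neither run of letters. Bases outside the windows were not searched, so this does not show that these genes lack the element. Of 32851 promoter windows of this length, 12.4% held the first form, 1.19% the second and 0.533% both, as Srxn1 did. A match is a run of letters and not a site shown to be bound.

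The genes that separated the groups were Hmox1, Gclc and Bach1. Hmox1, which encodes the enzyme that opens the haem ring, was lower at 1.5 days of RANKL and lower again at 3 days. Gclc, the catalytic subunit of the rate-limiting enzyme of glutathione synthesis, was lower with RANKL on every array. Bach1, the repressor, was higher with RANKL on every array. The levels of Nfe2l2 and Keap1, which encode the activator and its inhibitor, overlapped between the groups in all 3 comparisons.

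Hmox1 (transcript cluster 6977260) had levels of 10.95, 11.24 and 11.23 in CSF-1 alone, 10.46, 10.54 and 10.46 at 1.5 days of RANKL, and 10.09, 10.29 and 10.22 at 3 days (arrays 1, 2 and 3 of each group). No array of one group reached into another, and the 3 groups stood in the order of time. Among all genes, 0.114% (17 of 14860) had the groups in this descending order without overlap. The mean was 10.20 ± 0.10 at 3 days, against 11.14 ± 0.17 in CSF-1 alone (SD, n = 3 each), a log2 change of -0.94 (SE 0.09), or 0.521 times the signal. At 1.5 days it was 10.49 ± 0.05 (SD, n = 3), a log2 change of -0.65 (SE 0.09) from CSF-1 alone, or 0.636 times the signal.

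Between the RANKL times Hmox1 was lower by value at 3 days, with a log2 change of -0.29 (SE 0.09) that did not pass (adjusted p = 0.823, limma with Benjamini-Hochberg adjustment over all genes). It was the only one of the 8 genes whose 3 days arrays lay wholly beyond the 1.5 days arrays. Of all genes, 3.37% lay wholly below in this comparison. In bulk RNA, a lower level in each cell and fewer cells that express the gene cannot be told apart.

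**Figure D1:**
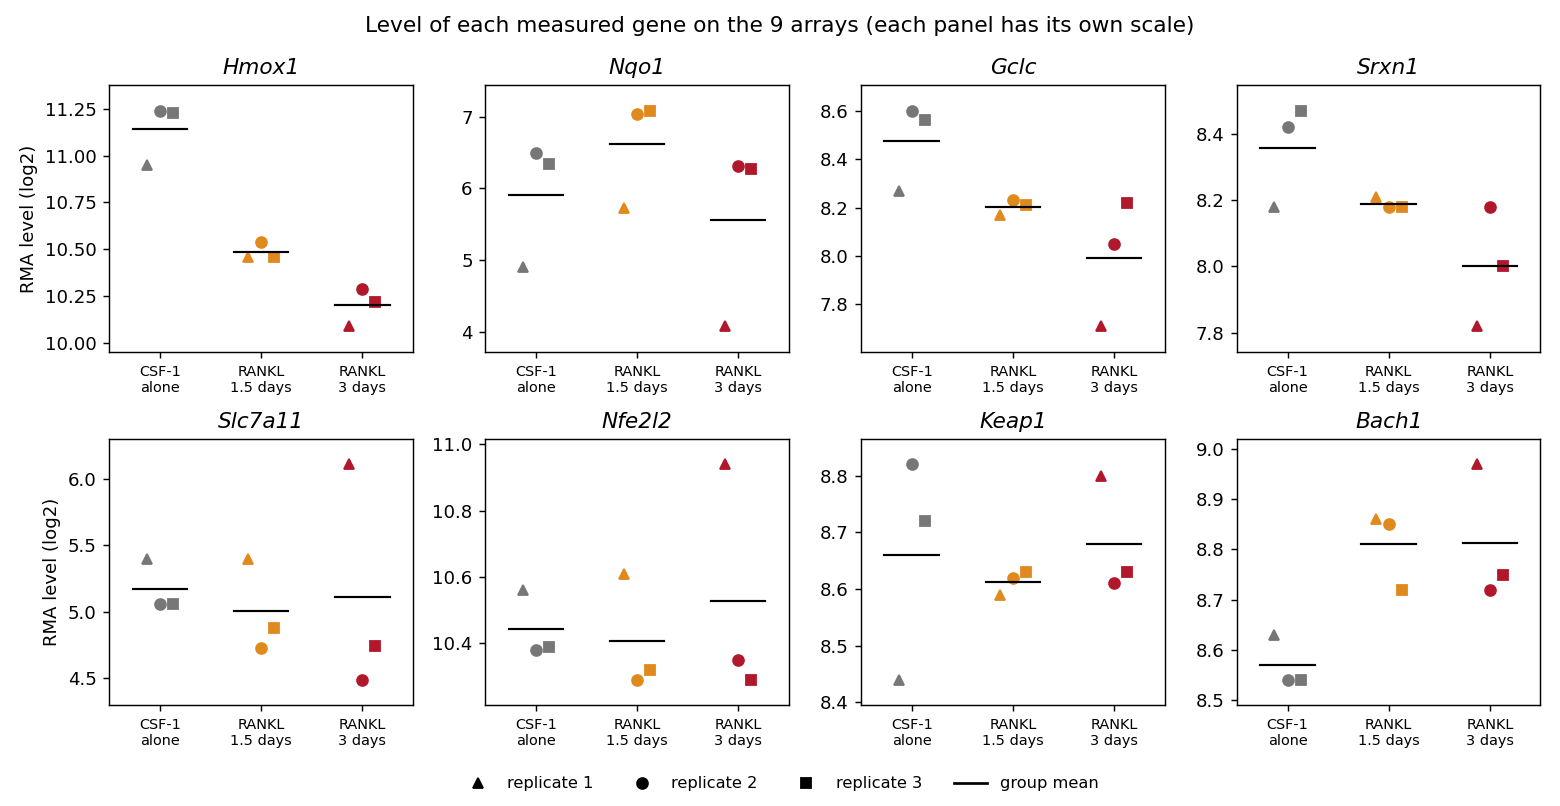
Level of each measured gene (RMA log2 signal, y axis, own scale per panel) on the 9 arrays by group (x axis). Symbols give the replicate number and black lines the group mean. The Hmox1 groups lie at 10.95 to 11.24, 10.46 to 10.54 and 10.09 to 10.29 without overlap, and the replicate 1 arrays are lowest for Nqo1 and highest for Slc7a11 and Nfe2l2 in every group.

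Among the other genes of haem and iron handling, the iron exporter differed most by value. Slc40a1, which encodes ferroportin, had 8.90, 9.12 and 9.04 in CSF-1 alone, 8.10, 6.77 and 6.95 at 1.5 days of RANKL, and 8.19, 7.98 and 8.20 at 3 days. All RANKL arrays were below all CSF-1 alone arrays, with the lowest levels at 1.5 days on arrays 2 and 3. Its log2 change was -1.75 at 1.5 days (SE 0.31, adjusted p = 0.0823) and -0.90 at 3 days (SE 0.31, adjusted p = 0.354), and neither passed. Slc48a1, a haem transporter of the lysosome, differed by -0.44 at 3 days (SE 0.12, adjusted p = 0.207). Lrp1, the receptor for haemopexin-bound haem, differed by -0.26 at 1.5 days (adjusted p = 0.513), and Blvrb, a biliverdin reductase, by -0.24 between 3 and 1.5 days (adjusted p = 0.823). Of the 20 measured genes for haem and iron handling, 0 passed in any comparison, and their median log2 change was -0.03 at 3 days, beside -0.01 for all genes.

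Gclc (transcript cluster 6990664) had levels of 8.27, 8.60 and 8.56 in CSF-1 alone, 8.17, 8.23 and 8.21 after 1.5 days, and 7.71, 8.05 and 8.22 at 3 days. Both RANKL groups lay below CSF-1 alone without overlap, though the gap between the highest 1.5 days array and the lowest CSF-1 alone array was small, and the RANKL groups overlapped each other. Of all genes, 2.37% had both RANKL groups below CSF-1 alone in this way, and Hmox1 was the other member that did. Below CSF-1 alone without overlap at a single time were 4.91% of genes at 3 days and 6.05% at 1.5 days. The log2 change of Gclc was -0.48 at 3 days and -0.27 at 1.5 days (SE 0.14 each). Between 3 and 1.5 days it was -0.21 (SE 0.14, adjusted p = 0.823).

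Srxn1 (transcript cluster 6882264) encodes sulfiredoxin, which repairs over-oxidised peroxiredoxins. Its levels were 8.18, 8.42 and 8.47 in CSF-1 alone, 8.21, 8.18 and 8.18 after 1.5 days, and 7.82, 8.18 and 8.0 at 3 days. The 3 days arrays lay at or below every other array, the highest of them level with the lowest of the other groups, so that neither comparison was free of overlap. The log2 change from CSF-1 alone was -0.36 at 3 days and -0.17 at 1.5 days (SE 0.11 each), and 3 days differed from 1.5 days by -0.19 (SE 0.11, adjusted p = 0.823).

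Bach1 (transcript cluster 6842940) had levels of 8.63, 8.54 and 8.54 in CSF-1 alone, 8.86, 8.85 and 8.72 after 1.5 days, and 8.97, 8.72 and 8.75 at 3 days. Every RANKL array was above every CSF-1 alone array, while the RANKL groups overlapped. Of all genes, 3.73% had both RANKL groups above CSF-1 alone without overlap, with 6.59% above it at 3 days and 8.63% at 1.5 days. The log2 change was 0.24 at both times (SE 0.08), or 1.18 times the signal, and 3 days did not differ detectably from 1.5 days (difference 0.00, SE 0.08, adjusted p = 0.998).

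**Figure D2:**
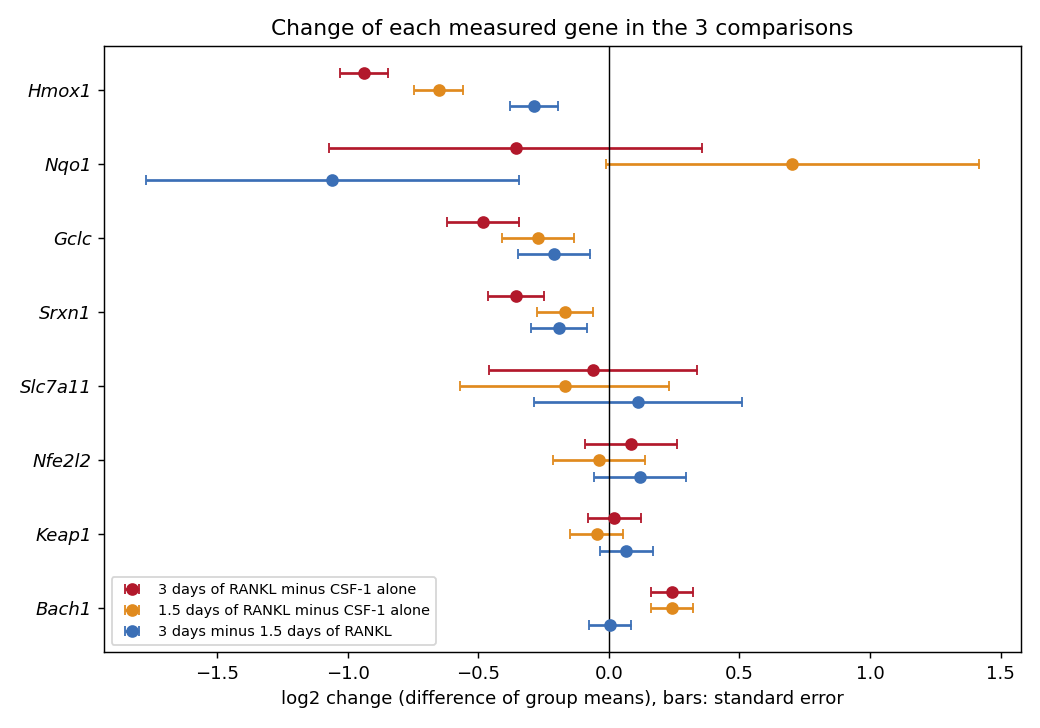
Log2 change of each measured gene (x axis, difference of group means) in the 3 comparisons, with bars of 1 standard error from the fit to all 9 arrays. Hmox1 has the largest negative changes from CSF-1 alone, -0.94 at 3 days and -0.65 after 1.5 days, and Bach1 lies at 0.24 at both times. The bars of Nqo1, with a standard error of 0.71, are the widest.

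The arrays numbered 1 differed from those numbered 2 and 3 for several of these genes, most of all for Nqo1, Slc7a11 and Nfe2l2. Nqo1 (transcript cluster 6985106) encodes a quinone reductase. Its levels were 4.90, 6.49 and 6.34 in CSF-1 alone, 5.73, 7.03 and 7.08 after 1.5 days, and 4.08, 6.31 and 6.27 at 3 days. Array 1 was the lowest of each group, by 1.51 in CSF-1 alone, 1.32 after 1.5 days and 2.21 at 3 days, against the mean of arrays 2 and 3. This spread was larger than any difference between the groups, and the groups overlapped in each comparison.

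Among arrays of the same number, Nqo1 was highest at 1.5 days and lowest at 3 days in all 3 numbers, a pattern noticed in these values that 0.377% of genes showed. Its log2 change over all 9 arrays was 0.70 at 1.5 days and -0.36 at 3 days from CSF-1 alone, and -1.06 at 3 days against 1.5 days (SE 0.71 each, adjusted p = 0.823 for the last). With only arrays 2 and 3, a subset chosen after seeing the data, these values were 0.64, -0.13 and -0.77. The last did not pass there either (adjusted p = 0.153, with 0.153 to 0.93 over all alternatives other than leaving out 1 array). At 1.5 days against CSF-1 alone this subset called Nqo1, a comparison on which the set was chosen.

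Slc7a11 (transcript cluster 6904892), the cystine importer that supplies glutathione synthesis, ran the other way. Its levels were 5.40, 5.06 and 5.06 in CSF-1 alone, 5.40, 4.73 and 4.88 after 1.5 days, and 6.11, 4.49 and 4.74 at 3 days. Array 1 was the highest of each group, by 0.34, 0.60 and 1.50 in that order of groups. The log2 change from CSF-1 alone was -0.06 at 3 days and -0.17 at 1.5 days (SE 0.40 each), and on arrays 2 and 3 alone it was -0.45 and -0.26. Between 3 and 1.5 days it was 0.11 (SE 0.40, adjusted p = 0.966), and it turned to -0.19 on arrays 2 and 3 alone.

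Nfe2l2 (transcript cluster 6887958) had levels of 10.56, 10.38 and 10.39 in CSF-1 alone, 10.61, 10.29 and 10.32 after 1.5 days, and 10.94, 10.35 and 10.29 at 3 days. Array 1 was again the highest of each group, by 0.17, 0.30 and 0.62. Arrays 2 and 3 of all groups lay between 10.29 and 10.39. The log2 change from CSF-1 alone was 0.08 at 3 days and -0.04 at 1.5 days (SE 0.18 each), and 3 days differed from 1.5 days by 0.12 (SE 0.18, adjusted p = 0.896).

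Keap1 (transcript cluster 6993754) had levels of 8.44, 8.82 and 8.72 in CSF-1 alone, 8.59, 8.62 and 8.63 after 1.5 days, and 8.80, 8.61 and 8.63 at 3 days. The CSF-1 alone arrays spanned the range of all the others. The log2 change was 0.02 at 3 days and -0.05 at 1.5 days from CSF-1 alone, and 0.07 between 3 and 1.5 days (SE 0.10 each, adjusted p = 0.898 for the last).

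Over the 9 arrays the genes fell into correlated groups, given as a description, since the arrays share their groups and their replicate 1 deviation. Hmox1 was correlated with Gclc (Pearson r = 0.88) and Srxn1 (0.87), and Gclc with Srxn1 (0.91). Bach1 ran against all 3, at -0.85 with Hmox1, -0.87 with Gclc and -0.82 with Srxn1. Slc7a11 and Nfe2l2 went together (0.95) and against Nqo1 (-0.86 and -0.92), the genes in which array 1 stood apart. Keap1 was correlated with none of them beyond 0.24.

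**Figure D3:**
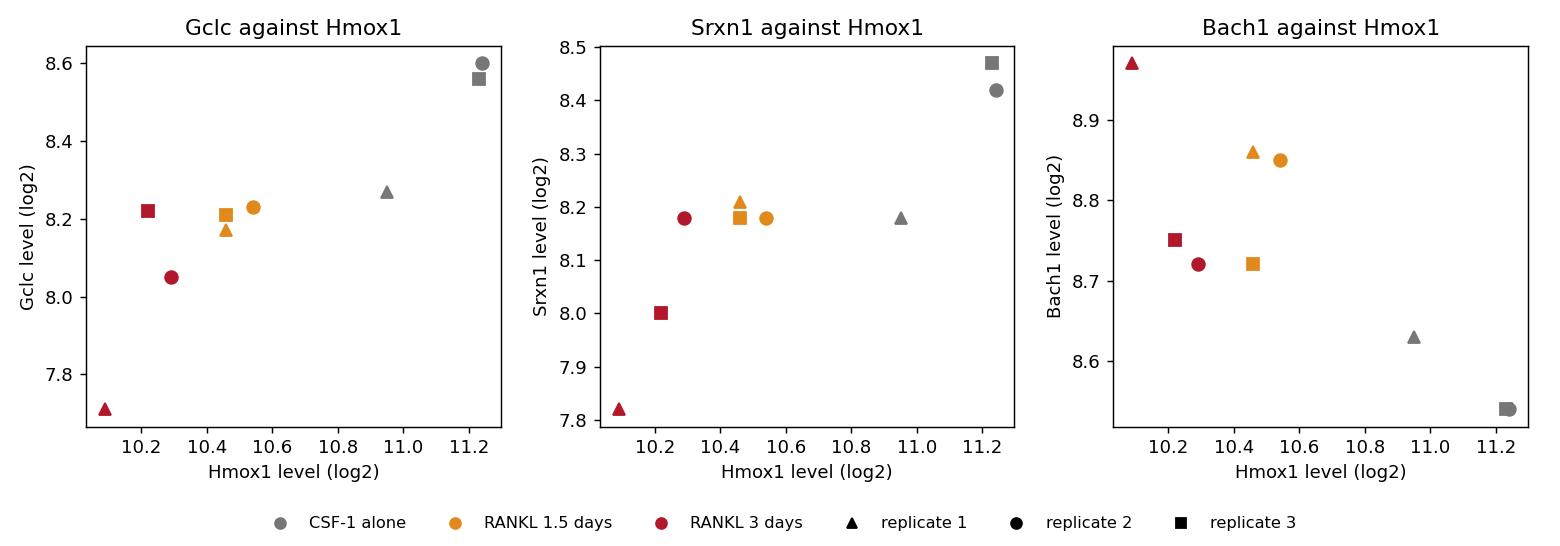
Levels (log2) of Gclc, Srxn1 and Bach1 (y axes) against Hmox1 (x axes) on the 9 arrays, with colours for the groups and symbols for the replicate numbers. The array with the lowest Hmox1 level, 10.09 at 3 days, also has the lowest Gclc (7.71) and Srxn1 (7.82) and the highest Bach1 (8.97). It is replicate 1 of its group. From the mean of replicates 2 and 3 it differs by -0.43 in Gclc, -0.27 in Srxn1 and 0.24 in Bach1.

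Set against all genes, 1 of the 8 measured genes was called at 3 days of RANKL against CSF-1 alone, where 0.397% of 14860 genes were called, 0.0538% of all genes as lower. At 1.5 days it was again 1, with 0.417% of genes called and 0.101% as lower, and between 3 and 1.5 days they were 0 of 8, with 0% of genes called. An unadjusted limma p under 0.05 was found there for 1 of the 8, Hmox1, and for 771 of all genes. The called gene was Hmox1, lower in both, on which the set was chosen, and nothing is read from these counts. The median log2 change of the 8 genes was -0.21 at 3 days and -0.11 at 1.5 days from CSF-1 alone, beside -0.01 and 0.01 for all genes. These medians include Hmox1, on which the set was chosen, and nothing is read from them. Without Hmox1 the middle gene was Slc7a11 at 3 days (-0.06) and Keap1 at 1.5 days (-0.05). With any 1 array left out, the log2 change of Hmox1 from CSF-1 alone lay between -1.04 and -0.89 at 3 days and between -0.75 and -0.60 at 1.5 days.

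Of 97 measured genes on 6 related lists, 0 passed in any comparison, with an unadjusted p under 0.05 for 19 at 3 days, 18 at 1.5 days and 4 between the times. Over all 14860 genes these counts were 1564, 1312 and 771. The lists were chosen from textbook knowledge, and all genes named from them are given by value. On arrays 2 and 3 alone, 7 passed at 3 days and 10 at 1.5 days against CSF-1 alone, where 334 and 474 of all genes passed. Ncf4, Slc40a1, Gsto1, Slc1a5 and Gpx3, named after their values were seen, were among them at both times. Over all 9 arrays Gsto1, a glutathione transferase, differed by 0.40 at 3 days and 0.39 at 1.5 days (adjusted p = 0.092 and 0.118). Its RANKL arrays all exceeded its CSF-1 alone arrays. Slc1a5 differed by 0.39 and 0.53 (adjusted p = 0.651 and 0.635).

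The partners and regulators of NRF2 and BACH1, 15 genes that include the small MAF proteins and the ubiquitin ligase subunits, spread least. Their log2 changes lay between -0.16 and 0.18 at 3 days and between -0.18 and 0.29 at 1.5 days. The farthest were Nfe2l1, a relative of NRF2 that drives proteasome genes (0.18), and Syvn1, a ubiquitin ligase for NRF2 (0.17), at 3 days. At 1.5 days they were Bach2, a relative of BACH1 best known in lymphocytes (0.29), and Mafg, a small MAF partner (-0.18). Between 3 and 1.5 days Rbx1, a subunit of the KEAP1 ligase, differed by -0.17 and Bach2 by -0.15. Adjusted p-values of these values were 0.329 or more.

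Of 15 other NRF2 targets, 10 were below 0 at 3 days and 8 at 1.5 days, with medians of -0.11 and -0.05. Gsta3, a glutathione transferase, had 4.07, 5.10 and 5.19 in CSF-1 alone, 4.53, 5.11 and 5.67 after 1.5 days, and 3.82, 4.27 and 4.08 at 3 days. Its 3 days arrays lay wholly below its 1.5 days arrays, with a log2 change of -1.05 (SE 0.36, adjusted p = 0.823), and it had the same order of group means as Nqo1. Txn1, thioredoxin, differed by 0.65 at 3 days from CSF-1 alone (SE 0.29, adjusted p = 0.489) and by 0.49 from 1.5 days (adjusted p = 0.823). The signal of Txn1 was low, below the median of each array. Its levels were 3.30, 3.59 and 4.17 in CSF-1 alone, 3.70, 4.25 and 3.59 after 1.5 days, and 4.06, 4.16 and 4.79 at 3 days. At 1.5 days the farthest were Prdx1, a peroxiredoxin (-0.39, adjusted p = 0.544), and Cat, catalase (-0.38, adjusted p = 0.382).

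The 16 genes of glutathione and cystine supply had a median of 0.04 at 3 days and 0.06 at 1.5 days, beside -0.01 and 0.01 for all genes. Of the 16, 7 were below 0 at 3 days and 5 at 1.5 days. Gstt1, a glutathione transferase, had 5.25, 3.83 and 5.10 in CSF-1 alone, 5.68, 6.12 and 6.28 after 1.5 days, and 5.74, 6.10 and 5.85 at 3 days. Hagh, the glyoxalase that releases glutathione from its lactate ester, had 8.07, 7.90 and 8.05 in CSF-1 alone, 8.54, 8.87 and 9.24 after 1.5 days, and 8.57, 8.95 and 8.95 at 3 days. For both, every RANKL array was above every CSF-1 alone array. The log2 change was 1.17 at 3 days and 1.30 at 1.5 days for Gstt1 (adjusted p = 0.283 and 0.256) and 0.82 and 0.88 for Hagh (adjusted p = 0.138 and 0.133). Between 3 and 1.5 days Chac1, which degrades glutathione, differed by -0.17, and Slc1a5, a glutamine importer, by -0.14 (adjusted p = 0.856 and 0.914). Both differences lay mainly on array 1. Among arrays numbered 1, 2 and 3 they were -0.59, -0.01 and 0.08 for Chac1 and -0.56, 0.02 and 0.12 for Slc1a5.

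Reactive oxygen species are made by the NADPH oxidases and removed by dismutases, peroxidases and reductases. Of 12 measured oxidase genes, Nox1, a catalytic subunit, had 3.77, 4.74 and 4.43 in CSF-1 alone, 5.32, 5.53 and 5.78 after 1.5 days, and 4.53, 6.26 and 6.67 at 3 days. Ncf4, which encodes the p40phox subunit of the phagocyte oxidase, had 8.85, 9.12 and 9.03 in CSF-1 alone, 9.69, 9.89 and 10.00 after 1.5 days, and 9.30, 9.87 and 9.90 at 3 days. The RANKL arrays of Ncf4 all exceeded the CSF-1 alone arrays, while array 1 of Nox1 at 3 days lay among them. The log2 change from CSF-1 alone was 1.51 at 3 days and 1.23 at 1.5 days for Nox1 (adjusted p = 0.358 and 0.558), and 0.69 and 0.86 for Ncf4 (adjusted p = 0.173 and 0.118). Cybb, the catalytic subunit of the phagocyte oxidase, differed by 0.24 between 3 and 1.5 days (adjusted p = 0.823).

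Among 19 genes that remove superoxide and peroxide, the farthest at 3 days were Glrx, glutaredoxin (-0.45, adjusted p = 0.569), and Msrb1, a methionine sulfoxide reductase (0.35, adjusted p = 0.162). At 1.5 days they were Selenop, the selenium carrier selenoprotein P (-0.87, adjusted p = 0.641), and Gpx3, the secreted glutathione peroxidase (-0.63, adjusted p = 0.597). Both were higher by value at 3 days than at 1.5 days, by 0.85 and 0.48 (adjusted p = 0.823 each). The list median was 0.02 at both times against CSF-1 alone.

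**Figure D4:**
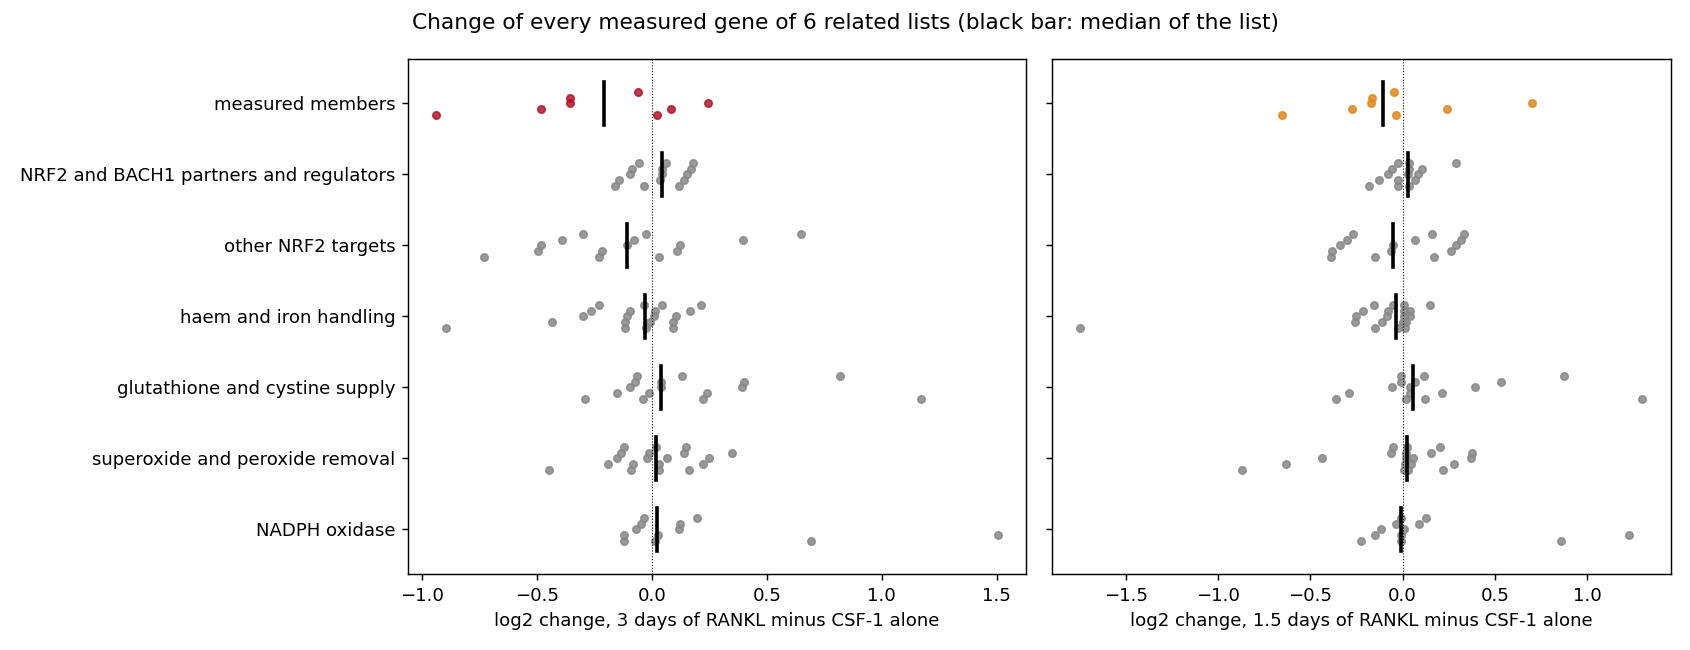
Log2 change from CSF-1 alone (x axes) of the 8 measured genes and of every measured gene on the 6 related lists, at 3 days (left) and 1.5 days (right) of RANKL. Black bars are list medians, which lie at -0.21 and -0.11 for the 8 genes and between -0.11 and 0.06 for the lists. The medians of the 8 genes include Hmox1, on which the set was chosen. The lowest point at 1.5 days is Slc40a1 (-1.75) and the highest at 3 days is Nox1 (1.51).

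The array medians lay between 5.02 and 5.22. The cells carried markers of the labelled lineage: Csf1r averaged 11.74 at 3 days and 11.77 in CSF-1 alone, and Adgre1 and Itgam were above 11 in every group. Of 13 macrophage and monocyte markers measured, 11 were below 0 at 3 days and 12 at 1.5 days. The scavenger receptor Cd36 was called lower at both times (log2 change -0.90 and -0.87, adjusted p = 0.0311 and 0.0427), and Ccr2 differed by -1.59 and -1.03. The log2 of the summed signal of 12 osteoclast markers was 12.84 to 13.65 at 3 days and 10.94 to 12.88 at 1.5 days, against 10.09 to 10.56 in CSF-1 alone. Acp5 averaged 11.41 at 3 days against 6.28 in CSF-1 alone, Ctsk 10.95 against 6.88 and Mmp9 11.58 against 4.34. Of the 12, only Mmp9 was called at 3 days (adjusted p = 0.0237, against 0.0599 for Acp5 and 0.0638 for Ctsk). At 1.5 days 0 were called, and Itgb3 was lower by value (-0.29). At 1.5 days array 1 stood apart, with Acp5 at 7.72, 11.17 and 11.03, Ctsk at 8.01, 10.68 and 10.53 and Mmp9 at 7.04, 10.47 and 10.55 on arrays 1, 2 and 3. Array 1 was the lowest for these markers at 3 days too. Acp5 was then 10.82, 11.75 and 11.66, Ctsk 10.27, 11.19 and 11.4, and Mmp9 10.95, 11.86 and 11.94. Atp6v0d2 went the other way, at 10.1, 9.69 and 9.64 at 3 days and 9.13, 6.98 and 6.98 in CSF-1 alone. The part of the arrays numbered 1 in the differences of the 8 genes was not tested. For 13 of 15 macrophage and monocyte markers measured, the same sum was 14.22 to 14.36 at 3 days and 14.07 to 14.29 at 1.5 days, against 14.39 to 14.48 in CSF-1 alone. It was thus lower with RANKL, as Hmox1 was, and its part in the Hmox1 difference was not tested. The list of erythroid and megakaryocyte markers, 8 of 17 measured, summed to 7.48 to 7.88 at 3 days and 7.47 to 8.32 at 1.5 days, against 8.46 to 8.62 in CSF-1 alone, led by Pf4. Lymphoid, stromal and granulocyte markers were low, and no single marker of these lists averaged above 5.59 in any group.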

How the data were processed

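Exon array log2 values came from the deposited table, which the authors made with Affymetrix Expression Console and RMA (background correction, quantile normalisation, median polish) and rounded to 2 decimals. No source used here gives their versions. Precision is limited by the number of arrays. Detection above background was not analysed. Of 23332 transcript clusters, 14996 had 1 gene symbol in the platform annotation, 1019 had several and 7317 were unlisted. Symbols were updated by gene ID through RefSeq (14941 matched), and for 135 symbols with several clusters the one of highest mean was kept, leaving 14860 genes.

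A mean per group was fitted to all 9 arrays with limma 3.58.1 in R 4.3.3 (lmFit and eBayes, 6 residual and 1.83 prior degrees of freedom). Comparisons were two-sided, with p-values adjusted over all genes (Benjamini-Hochberg) and a gene called where the result was under 0.05. The fit was tested on simulated data with independent noise on each array, which says nothing on deviations that arrays share. No exact test of 3 arrays against 3 can go below p = 0.1.

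The members, the 6 lists and the marker lists were chosen with earlier results of these data known. Named genes were all members, the 2 genes of each list with the largest change in each comparison, the 5 genes most correlated with Hmox1 and with Bach1, and a few markers. List genes called on replicates 2 and 3 only at both RANKL times were also named. Alternatives were the replicate number as a block, a term for replicate 1 against replicates 2 and 3, quantile normalisation again, median centring, leaving out the 4955 dimmest genes, a trended robust variance, array weights, all clusters, the mean of a symbol's clusters, the 6 arrays of a comparison, each array left out, the methods' t-test and, added after seeing the data, replicates 2 and 3 only.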

Additional observations from a re-analysis of the deposited data

How the results depend on the processing

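The Hmox1 change kept its sign under every alternative, from -0.98 to -0.94 at 3 days and from -0.74 to -0.63 at 1.5 days with all other settings, and from -0.75 to -0.60 at 1.5 days with 1 array left out. Counts against CSF-1 alone moved more, and except where a setting tests other genes or fewer arrays the cause was not tested. All genes called at 3 days (59) became 215 with a term for replicate 1, 97 after centring (69 higher and 28 lower, against 51 and 8), 95 without the 4955 dimmest genes, 19 over all clusters, 31 on the 6 arrays, 334 on replicates 2 and 3 only, 0 by the methods' t-test after Benjamini-Hochberg and 964 before it, and 4 to 102 with 1 array left out. At 1.5 days (62) the counts were 205 with that term, 61 after centring, 95 without the 4955 dimmest genes, 607 with array weights (302 higher and 305 lower, against 47 and 15), 15 over all clusters, 26 on the 6 arrays, 474 on replicates 2 and 3, 8 and 1334 by the t-test, and 2 to 139 with 1 array left out. Between 3 and 1.5 days limma called 0 under every setting, and the unadjusted t-test gave 411.

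Members called, 1 at each time, became 0 on the 6 arrays, 0 by the adjusted and 2 by the unadjusted t-test at both times, and at 1.5 days 0 over all clusters, 2 with array weights (Bach1 with Hmox1) and 2 on replicates 2 and 3 (Nqo1 with Hmox1). With 1 array left out they ranged from 0 to 1, and between the times the unadjusted t-test gave 1. At 3 days the count was 0 without array 2 or 3 of CSF-1 alone, array 2 at 1.5 days or array 3 at 3 days, and at 1.5 days it was 1 only without array 1 of CSF-1 alone or of 3 days. List genes called, 0 in each comparison, became 1 at 3 days and 3 at 1.5 days with the replicate 1 term, 7 and 10 on replicates 2 and 3, and 17, 15 and, between the times, 4 by the unadjusted t-test. At 1.5 days they were 1 after centring, 1 without the 4955 dimmest genes and 7 with weights, and with 1 array left out 0 to 3 at 3 days and 0 to 4 at 1.5 days.

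With the replicate number as a block, 97 genes were called at 3 days, 71 at 1.5 days and 0 between the times, and 1 list gene, Ncf4, at 1.5 days. Same-numbered arrays deviated together at r = 0.0461 to 0.366, over 0.1 in 7 of 9 pairs. Arrays numbered 1 went together between groups (r = 0.331, 0.27 and 0.366). Their r with arrays numbered 2 or 3 of another group was always negative, while arrays 2 and 3 had positive r with each other. The main fit has no term for this shared deviation and does not pair the arrays by number. Each 3 days array correlated best with its own number among the 1.5 days arrays. Array 3 at 1.5 days, however, was closer to array 2 at 3 days (r = 0.178) than to array 3 (r = 0.146). In neither comparison with CSF-1 alone did each RANKL array correlate best with its own number.

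With 1 array left out, some signs turned against CSF-1 alone. At 3 days the change ranged from -0.862 to 0.38 for Nqo1 and from -0.558 to 0.252 for Slc7a11. It ranged from -0.123 to 0.202 for Nfe2l2 and from -0.09 to 0.1 for Keap1. At 1.5 days it ranged from -0.138 to 0.022 for Nfe2l2 and from -0.157 to 0.033 for Keap1. The sign held for Hmox1, Gclc, Srxn1 and Bach1 at both times. Between 3 and 1.5 days the sign of several small changes turned as well. Bach1 was at -0.013 after quantile normalisation again, -0.037 with weights, -0.05 on replicates 2 and 3, and -0.042 and -0.075 without array 3 at 1.5 days or array 1 at 3 days (up to 0.05 with another array left out). Slc7a11 was at -0.059 with weights, -0.19 on replicates 2 and 3, and -0.027 and -0.388 without array 2 at 1.5 days or array 1 at 3 days (up to 0.422 with another left out). Keap1 was at -0.005 on replicates 2 and 3, and Nfe2l2 at -0.087 without array 1 at 3 days (up to 0.238). Of the 5 genes most like Hmox1, 1 was shared by Spearman ranking and 0 by deviations from the group means, and of those most like Bach1, 2 and 0.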

Other observations

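Genes outside the set were ranked by how closely their levels followed Hmox1 or Bach1 over the 9 arrays, as a description, since arrays of a group share what sets the group apart. The 5 closest to Hmox1 were Ccr2, the receptor for monocyte chemokines (Pearson r = 0.956), Acap1, a GTPase-activating protein for ARF6 (0.955), Afap1l1, an actin-associated protein (0.953), Rgs12, a regulator of G-protein signalling (0.952), and the receptor Notch1 (0.947). Ccr2 had means of 5.58 at 3 days and 6.15 at 1.5 days, against 7.17 in CSF-1 alone, and Notch1 6.65 and 7.05, against 7.40. All 5 descended in the order of time, as Hmox1 did, which a ranking by r over these arrays favours.

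The 5 closest to Bach1 were Plxnd1, a semaphorin receptor (0.977), the forkhead factor Foxk1 (0.972), Gngt2, a G-protein gamma subunit (0.970), Mapkapk2, a kinase downstream of p38 (0.965), and Map3k11, a kinase upstream of JNK (0.952). Plxnd1 had means of 9.90 at 3 days and 9.91 at 1.5 days, against 9.25 in CSF-1 alone, and Mapkapk2 10.18 and 10.20, against 9.87. In all 5 the means of the RANKL groups differed by 0.10 or less, as those of Bach1 did, and the ranking favours this too.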
